A study of Mus musculus with 4 samples.

Results

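The comparison described here asks how mouse dendritic cells in CAF.CM differed when a Wnt2 antibody had been mixed into the CAF.CM beforehand. CAF.CM is the culture medium of CAFs, the usual abbreviation for cancer-associated fibroblasts. Every gene with a ratio of these libraries in the authors' table was taken, which made 13072 genes of the 13685 listed in any table of the series. The series has 4 samples (control medium, Wnt2, CAF.CM and CAF.CM + Wnt2 antibody), and 2 of them form this comparison. All 4 came from bone marrow of C57BL/6 mice aged 4 weeks, cultured with GM-CSF (10 ng/ml) and IL-4 (10 ng/ml) over 7 days, so the controls had both cytokines as well. No sample analysed here had CAF.CM with a control antibody. The series text speaks of triplicates, but each group has 1 column of values, treated here as 1 library. No difference below therefore has a replicate check, and intervals are 95% exact binomial intervals that cover counting error only.

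Wnt2 is a secreted ligand that binds Frizzled receptors, and its best known route inside the cell stabilises beta-catenin, the partner of TCF/LEF transcription factors. Type I interferons signal through IFNAR1 and IFNAR2 and the kinases JAK1 and TYK2 to ISGF3, a complex of STAT proteins and IRF9 that binds the interferon-stimulated response element (ISRE). ISGF3 switches on a large set of antiviral genes, several of which sit in the genome as arrays of duplicated copies. Interleukin-10 and interleukin-6 act mainly through STAT3, and SOCS3 is a feedback inhibitor that STAT3 induces. Dendritic cells grown from marrow with GM-CSF and IL-4 are mixed with macrophage-like cells, and both express these pathways.

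Levels are the deposited CPM, reads scaled to the size of each library, and a ratio is the log2 of the antibody library over the CAF.CM library, below 0 where the antibody library was lower. A gene is called lower or higher where it differed at least 2-fold. Control medium and Wnt2 levels are set beside these for single genes, from libraries of 143071376 and 154399767 listed reads. A gene's difference from control medium in CAF.CM and its antibody ratio share the CAF.CM library. The listed genes held 25217873 reads in CAF.CM and 22791494 with the antibody, and 1 read was worth 0.0384 and 0.0431 CPM in turn. Of all genes, 84.9% lay within 1.5-fold and the median ratio was -0.04. Lower genes were 477, or 3.65%, and higher genes 133, or 1.02%. Counts of called members in the lists below are to be read beside these shares. The counting interval lay beyond 2-fold for 163 of the lower genes (1.25% of all) and 23 of the higher (0.176%). Among the 9556 protein-coding genes with at least 200 reads over both libraries, 202 (2.11%) were lower and 39 (0.408%) higher. The lower calls were most frequent among the weakest of these genes, at 4.18% of the 1914 genes with the fewest reads and 1.1% of the 1909 with the most. Higher protein-coding genes had short transcripts, with a median of 2066 bases for the longest transcript against 3374 for lower genes and 3488 for all. Their median GC content was 47.8%, against 47.4% for lower genes and 49.2% for all.

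**Figure D1:**
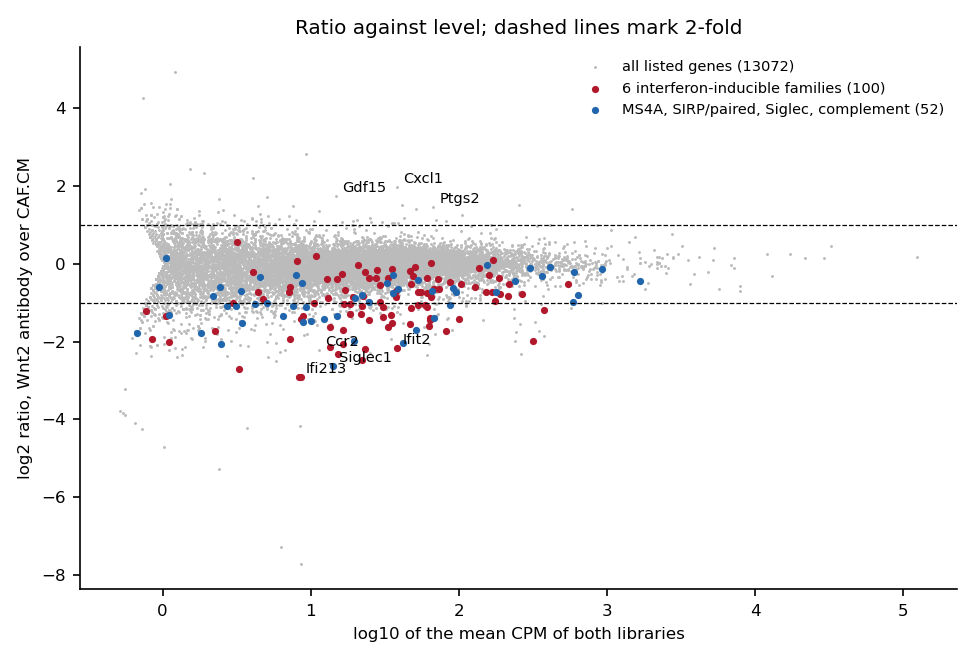
Log2 ratio of the antibody over the CAF.CM library (y axis) against log10 of the mean CPM of both libraries (x axis), 1 point a listed gene. The 100 listed members of 6 interferon-inducible families (red) and the members of 4 myeloid families (blue) lie mostly below 0; the dashed lines mark 2-fold.

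Dendritic cell markers were present. Of 12 conventional dendritic cell markers 10 were listed, with a summed level of 1367 CPM in CAF.CM and 1268 with the antibody. Their median ratio was -0.39, with 7 below 0 and 1 lower. Zbtb46, a transcription factor of conventional dendritic cells, stood at 15.7 CPM in control medium, 10.3 with Wnt2, 17.1 in CAF.CM and 21.2 with the antibody. Itgax, which encodes the integrin CD11c, was at 888 CPM in control medium, 223 with Wnt2, 47.7 in CAF.CM and 30.3 with the antibody. Both were detected in all 4 libraries. All 14 macrophage and monocyte markers were listed too, and their summed level went from 9663 to 6702 CPM. No B cell, eosinophil or erythroid marker was listed, 1 of 9 neutrophil, 1 of 7 T cell and 1 of 5 NK cell markers were, and of 8 fibroblast markers 2 were, at 13.5 and 15.9 CPM in sum.

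Many of the lower genes were interferon-inducible. Across 6 families (IFIT, OAS, other core effectors, GBP and IRG GTPases, Ifi200 and IFITM) 100 members were listed. Of these, 42 were lower and 0 higher, against 3.65% lower among all genes, and 95 had a ratio below 0. Their median ratio was -0.84, and their summed level went from 7783 CPM in CAF.CM to 4465 with the antibody. These families supplied 36 of the 202 lower protein-coding genes with 200 reads, or 17.8%. In bulk RNA, fewer cells of a type and less RNA per cell cannot be told apart. The macrophage and monocyte markers were lower in the same library, with a median of -0.85 and 5 of 14 called, and their part in the result was not tested.

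No ligand of the pathway could be followed. None of 21 type I, II and III interferon genes examined was listed, and Ifnb1 was among them. The receptor genes differed little, with Ifnar1 at -0.304 and Ifnar2 at -0.23. The interferon gamma receptor gene Ifngr1 was at -0.61, from 150.05 to 98.2 CPM.

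Among the components of ISGF3, Stat2 was at 40.3 CPM in control medium, 35.96 with Wnt2, 73.9 in CAF.CM and 32.8 with the antibody, a ratio of -1.17 (interval -1.29 to -1.05), and the antibody library was the lowest of the 4. Irf9, which encodes the DNA-binding subunit, was at 44.5 CPM in control medium, 40.3 with Wnt2, 65.9 in CAF.CM and 39.8 with the antibody, with a ratio of -0.73 (interval -0.84 to -0.61), short of 2-fold. All 12 listed receptor and ISGF3 genes had ratios below 0.

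All 9 interferon regulatory factor genes had ratios below 0 and none was called, with a median of -0.52. Irf7, which amplifies interferon responses, stood at 9.73 CPM in control medium, 11.1 with Wnt2, 129 in CAF.CM and 87.5 with the antibody. Its ratio of -0.56 (interval -0.65 to -0.49) left the antibody library well above control medium and Wnt2. Irf8, a factor needed for monocytes and some dendritic cells, had the lowest ratio of the list at -0.86, and Irf1 and Irf4 were at -0.63 and -0.47.

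**Figure D2:**
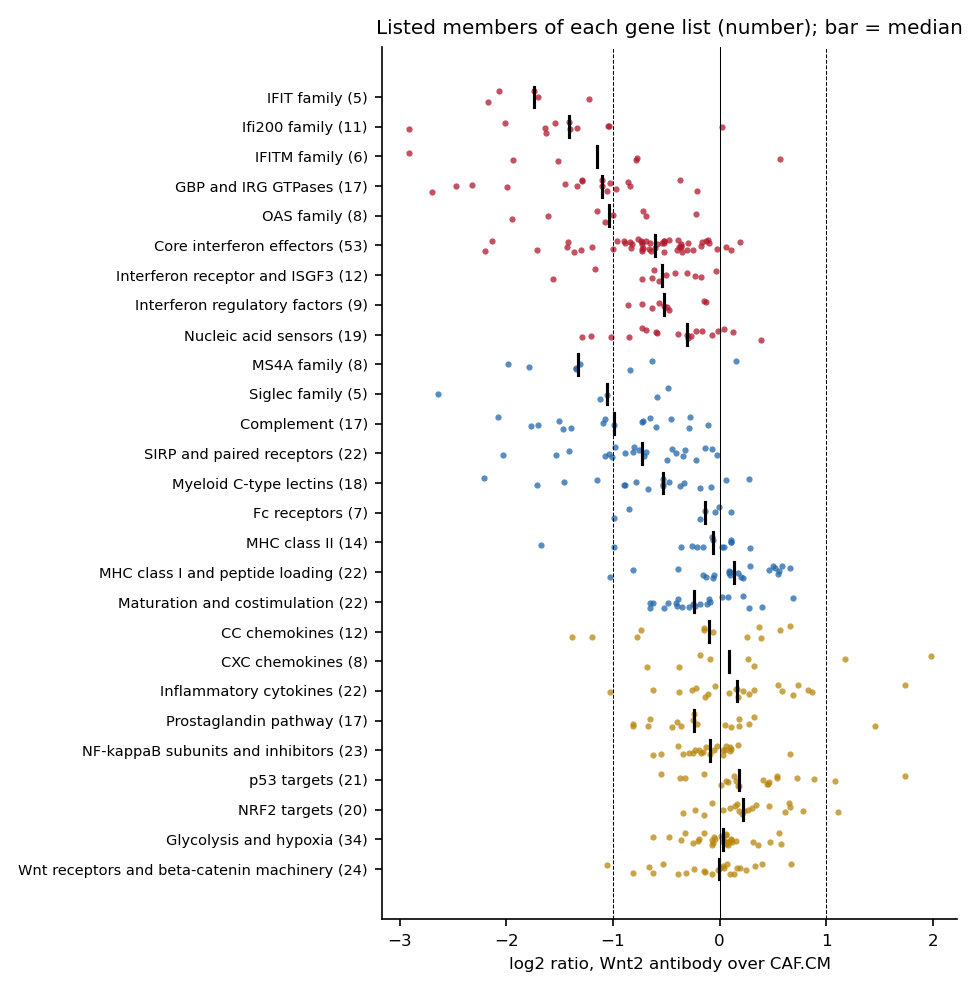
Log2 ratio of the antibody over the CAF.CM library (x axis) for the listed members of 27 gene lists (rows, number of listed members in brackets), with the median as a black bar and 2-fold as dashed lines. The interferon rows (red) and several myeloid receptor rows (blue) lie left of 0, while MHC and most signalling and metabolic rows centre near 0.

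The IFIT proteins bind viral RNA that lacks the marks of the cell's own messages. All 5 listed IFIT genes were lower, with ratios from -2.17 to -1.22. Ifit1 was at 2.73 CPM in control medium, 1.27 with Wnt2, 25.1 in CAF.CM and 7.67 with the antibody, a ratio of -1.701 (interval -1.96 to -1.47). Ifit2 was at 5.497 CPM in control medium, 2.297 with Wnt2, 62.3 in CAF.CM and 13.8 with the antibody. Both genes were higher with the antibody than in control medium or with Wnt2, although lower than in CAF.CM. Ifit3 followed at 26.6 CPM in CAF.CM and 6.29 with the antibody, with 61.8% of its words shared with other genes.

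The promoters of IFIT and Ifi200 genes are shown because ISRE-type letters recur there. Each line gives the 200 bases before the RefSeq transcription start on GRCm38.p6, 5′ to 3′ on the gene's strand. Capitals mark GAAA, any 2 bases and GAAA again, or the reverse complement, searched on both strands with overlapping matches counted. Ifit1 lies at chr19:34640689-34640888 on the plus strand with 2 matches, Ifit3 at chr19:34583329-34583528 on the plus strand with 2, and Ifi213 at chr1:173599273-173599472 on the minus strand with 1.
Ifit1: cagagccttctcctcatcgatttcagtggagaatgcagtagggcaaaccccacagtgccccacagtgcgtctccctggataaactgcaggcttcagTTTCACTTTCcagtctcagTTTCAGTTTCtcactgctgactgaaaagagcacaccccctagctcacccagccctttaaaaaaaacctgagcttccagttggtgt
Ifit3: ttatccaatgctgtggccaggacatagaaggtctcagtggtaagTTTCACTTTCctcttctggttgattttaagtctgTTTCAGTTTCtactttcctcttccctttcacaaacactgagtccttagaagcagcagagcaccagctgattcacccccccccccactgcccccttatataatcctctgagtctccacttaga
Ifi213: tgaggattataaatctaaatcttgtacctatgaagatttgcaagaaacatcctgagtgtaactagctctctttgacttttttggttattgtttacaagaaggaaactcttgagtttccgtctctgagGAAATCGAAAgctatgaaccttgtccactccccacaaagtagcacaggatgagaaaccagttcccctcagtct

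In Ifit1 the matches start 104 and 85 bases before the transcription start, and in Ifit3 156 and 122 bases before it. The Ifi213 match starts 73 bases before the start. These letters occur in the window of 250 bases before to 50 after the start in 3.99% of the 27025 genes of the RefSeq promoter table. They occur in 4 of 5 IFIT genes, 8 of 10 Ifi200 genes, 13 of 43 core effectors, 2 of 6 IFITM genes and 6 of 18 SIRP and paired receptor genes with a promoter. They occur in 1 of 11 interferon receptor and ISGF3 genes and 1 of 8 interferon regulatory factor genes with a promoter. They occur in 0 of 7 MS4A genes and 2 of 64 nuclear respiratory chain genes. The shorter letters GAAANNGAA, with N for any base, occur in 3 of these 7 and 7 of these 64, and in 9.76% of the table's genes. The full letters also occur in 8 of 22 TRIM genes with a promoter. Of 25 listed TRIM genes 0 were called, where 3.65% of all genes were lower, and 18 had ratios below 0. A match is a description of the letters and does not show binding. A comparison of lower with other genes was void, since only 72.3% of lower genes have a promoter in the table.

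The OAS enzymes sense double-stranded RNA and make the messenger that activates RNase L. Of 8 listed OAS genes 4 (50%) were lower, against 3.65% of all genes, and all 8 had ratios below 0. Oasl2 was at 18.6 CPM in control medium, 14.4 with Wnt2, 94.8 in CAF.CM and 30.98 with the antibody, a ratio of -1.61 (interval -1.74 to -1.49). Oas3, the family's long member, was at 12.97 CPM in control medium, 10.8 with Wnt2, 65.2 in CAF.CM and 29.4 with the antibody, a ratio of -1.15 (interval -1.28 to -1.02). In both, CAF.CM was the highest of the 4 libraries and the antibody library the second. Oas2 was at -1.95 and Oas1a at -1.08, the latter with 68.1% of its words shared.

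Among 53 other listed effectors, 8 were lower, 0 higher and 50 below 0, with a median of -0.604. Samd9l, an antiviral restriction factor, was at 88.8 CPM in control medium, 84.7 with Wnt2, 125 in CAF.CM and 38.1 with the antibody, a ratio of -1.72 (interval -1.83 to -1.61). Cmpk2, a mitochondrial nucleotide kinase gene, was at 2.25 CPM in control medium, 0.827 with Wnt2, 12.6 in CAF.CM and 4.65 with the antibody. Samd9l was lower with the antibody than in any other library, and Cmpk2 was not. Of the Schlafen genes, growth regulators of myeloid cells and T cells, 2 of 8 were lower (25%, against 3.65% of all genes). These were Slfn8 at -1.43 and Slfn1 at -1.36, and 7 of 8 were past 1.5-fold.

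The Ifi200 family encodes PYHIN proteins, which bind DNA in the nucleus and cytoplasm. Of 11 listed members 10 were lower, with a median of -1.41. Ifi213 was at 1.06 CPM in control medium, 0.67 with Wnt2, 14.8 in CAF.CM and 1.896 with the antibody, a ratio of -2.91 (interval -3.45 to -2.51). Ifi204 was at 76.9 CPM in control medium, 38.5 with Wnt2, 145 in CAF.CM and 54.3 with the antibody, and Ifi209 was at 30.6 CPM in control medium, 19.7 with Wnt2, 69.9 in CAF.CM and 24.003 with the antibody. Ifi204 and Mndal (ratio -1.398) share 44.7% and 38.2% of their words with other genes, so reads may be split between copies. The 1 listed member not called was Aim2, the DNA sensor of the inflammasome, at 60.1 CPM in control medium, 55.8 with Wnt2, 64.2 in CAF.CM and 65.2 with the antibody, a ratio of 0.02 (interval -0.08 to 0.12).

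The GBP and IRG genes encode interferon-inducible GTPases that attack the membranes around intracellular pathogens. Of 17 listed members 12 were lower, and all 17 were below 0. Gvin1, the very large inducible GTPase, was at 201 CPM in control medium, 89.99 with Wnt2, 504 in CAF.CM and 126 with the antibody, a ratio of -1.99 (interval -2.05 to -1.94). Since 99.7% of its words recur in other genes, this value stands for a group of near-identical copies. Irgm2 was at 16.8 CPM in control medium, 15.2 with Wnt2, 36.2 in CAF.CM and 13.2 with the antibody, a ratio of -1.45 (interval -1.64 to -1.26), and Gbp9 was at 6.54 CPM in control medium, 3.72 with Wnt2, 26 in CAF.CM and 10.6 with the antibody. Iigp1 was at 25.5 CPM in CAF.CM and 5.04 with the antibody (ratio -2.32). Both Irgm2 and Gbp9 were lower than in CAF.CM, with Irgm2 also below the control.

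IFITM proteins block viral fusion, and 3 of 6 listed members were lower. Ifitm6 was at 31.3 CPM in control medium, 93.8 with Wnt2, 15.2 in CAF.CM and 1.94 with the antibody, a ratio of -2.92 (interval -3.45 to -2.52), and Ifitm1 was at 29.5 CPM in control medium, 469 with Wnt2, 52.5 in CAF.CM and 18.3 with the antibody. Ifitm6 was lower in CAF.CM than in control medium already, so the order of its libraries differs from that of the Ifit genes. The abundant Ifitm2 and Ifitm3 were at -0.78 and -0.79, and Ifitm10 stood at 0.57.

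Sensors of nucleic acids were lower in 3 of 19 members (15.8%, against 3.65% of all genes), with a median of -0.31. Zbp1, which senses Z-form nucleic acid, was at 6.11 CPM in control medium, 6.11 with Wnt2, 24.003 in CAF.CM and 10.4 with the antibody, a ratio of -1.202 (interval -1.43 to -0.99). Tlr3 and Tlr8, endosomal RNA receptors, were at -1.29 and -1.02, and Ddx58, which encodes RIG-I, was at -0.69. The TRIM family had 0 of 25 members called, and with 3.65% of all genes lower this count does not set it apart. Its median was -0.22, with 18 members below 0 and 7 above.

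**Figure D3:**
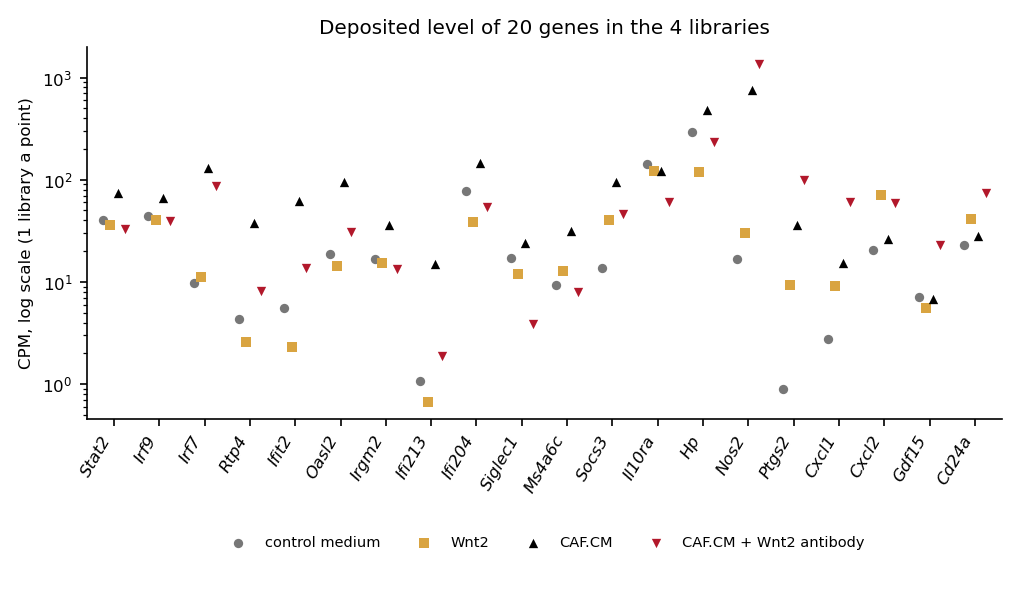
Deposited CPM (y axis, log scale) of 20 genes in control medium, Wnt2, CAF.CM and CAF.CM + Wnt2 antibody, 1 point a library. Rtp4, Ifit2, Oasl2 and Irgm2 are highest in CAF.CM, Siglec1 and Stat2 are lowest with the antibody, and Cxcl1, Ptgs2, Nos2, Gdf15 and Cd24a are highest with the antibody.

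Some lower genes were neighbours. In the order of listed protein-coding genes along the chromosomes, 14 runs of at least 4 consecutive genes were each at least 1.5-fold lower, and they held 81 genes. Over all listed protein-coding genes, 1172 of 11277 were lower by this measure. The Ifi200 array at chr1:173468485-174031810 (GRCm38, GENCODE M21) was a run of 10 genes from Ifi206 to Ifi205, all at least 2-fold lower. Another run of 10, from Trim7 to Ifi47 at chr11:48826140-49096974, included Irgm1, Tgtp1 and Tgtp2, and 8 of its genes were past 2-fold. The run over the Ifit array at chr19:34550694-34879455 had 6 genes, 5 of them Ifit genes past 2-fold and the last Pank1. The run over the Oas array at chr5:120730333-120907521 had 5. Within these arrays copies share sequence, so neighbouring values are not independent.

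Runs also held genes outside the interferon families. The Ms4a array at chr19:11321039-11604849 gave 8 consecutive genes, 5 past 2-fold, and the Ifitm run at chr7:140941391-141100572 ended with Pkp3 and the interleukin-1 receptor relative Sigirr. Sirpb1a, Sirpb1b, Sirpb1c and Gm5150 made a run at chr3:15371653-16006437. Clstn3, C1rl, C1ra and C1s1 made one at chr6:124430759-124542359, and Il1r1, Il1rl2, Il1rl1 and Il18rap another at chr1:40225080-40551705. The remaining runs held 6 Slfn genes, Gbp5 to Gbp2, Gimap5 to Tmem176a, Cd33 to Siglece, and 4 genes that ended with Iigp1.

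**Figure D4:**
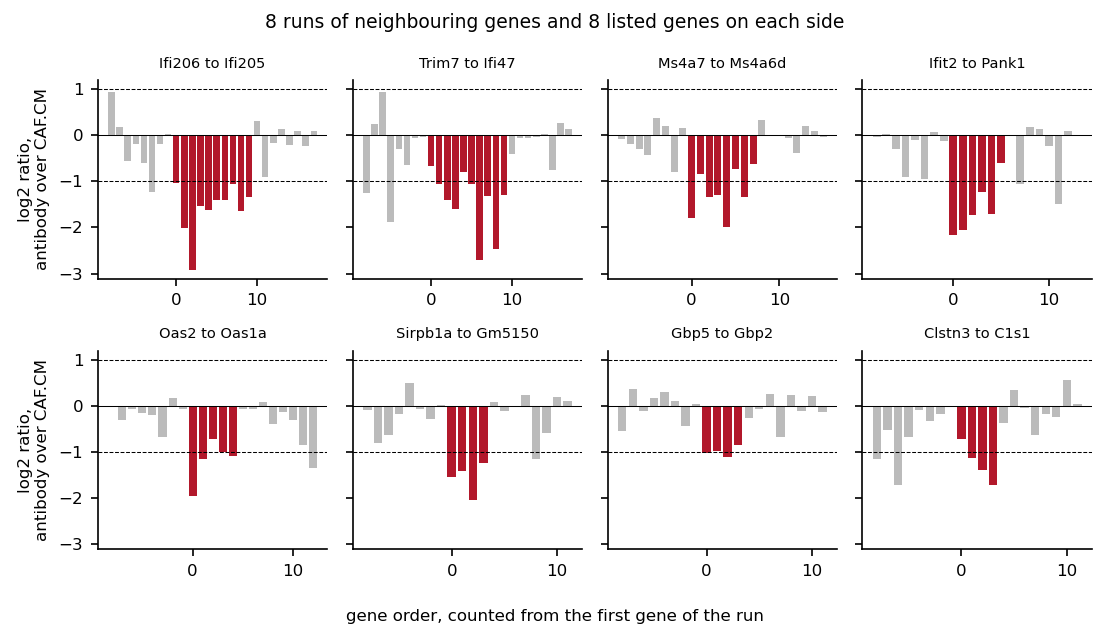
Log2 ratio of the antibody over the CAF.CM library (y axis) by gene order (x axis, counted from the first gene of the run) for 8 of the 14 runs (red) with 8 listed protein-coding genes on each side (grey). The red bars all pass 1.5-fold, most grey neighbours lie within 2-fold, and the dashed lines mark 2-fold.

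The interleukin-10 and STAT3 arm was mixed. Socs3 was at 13.8 CPM in control medium, 40.2 with Wnt2, 94.9 in CAF.CM and 45.9 with the antibody. The antibody library lay between CAF.CM and the Wnt2 library for this gene. The receptor gene Il10ra was at 143 CPM in control medium, 122 with Wnt2, 123 in CAF.CM and 60.8 with the antibody, and here the antibody library was the lowest of the 4. Of 30 listed JAK, STAT, SOCS and receptor genes 4 (13.3%) were lower, against 3.65% of all genes, Stat2, Socs3 and Il10ra among them. Of the 30, 23 were below 0 and none was higher. Il10 was not listed.

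The Socs3 promoter is shown as that of the feedback gene. It lies at chr11:117969367-117969566 on the minus strand (GRCm38.p6, RefSeq), and capitals mark the GAS letters TTCNNNGAA, a palindromic STAT motif, starting 154 bases before the transcription start.
Socs3: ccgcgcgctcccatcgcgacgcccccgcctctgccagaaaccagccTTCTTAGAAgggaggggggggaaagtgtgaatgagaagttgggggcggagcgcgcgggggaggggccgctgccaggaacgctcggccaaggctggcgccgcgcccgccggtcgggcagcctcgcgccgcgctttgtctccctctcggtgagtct

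These letters occur in 9.55% of the genes of the promoter table. Jak2 and Stat3 had ratios of -0.17 and 0.01, and the sign of Stat3 changed with the scaling. Jak3 was at -0.66. The granulocyte-macrophage growth factor receptor gene Csf2ra, whose ligand all cultures contained, was at 188 CPM in control medium, 121 with Wnt2, 50.6 in CAF.CM and 31.5 with the antibody (ratio -0.68).

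Interleukin receptor genes were lower in 7 of 25 listed members (28%, against 3.65% of all genes), with 23 below 0 and a median of -0.63. Il21r was at 71.02 CPM in control medium, 64.1 with Wnt2, 49.6 in CAF.CM and 23.2 with the antibody, a ratio of -1.095 (interval -1.25 to -0.95). Il12rb1, a shared subunit of the receptors for interleukins 12 and 23, was at 2.197 CPM in control medium, 1.82 with Wnt2, 6.03 in CAF.CM and 2.89 with the antibody, and Il23r, which had few reads, had a ratio of -1.32 (interval -2.0004 to -0.78).

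Receptors and secreted proteins of macrophages and monocytes formed the next group. The macrophage and monocyte markers themselves had a median of -0.85, and several members below belong to that list. Of the MS4A family, tetraspan proteins of myeloid cells, 5 of 8 listed members were lower (62.5%, against 3.65% of all genes). The family's median was -1.32. Ms4a6c was at 9.42 CPM in control medium, 12.8 with Wnt2, 31.5 in CAF.CM and 7.93 with the antibody, a ratio of -1.98 (interval -2.23 to -1.76), and Ms4a4c was at 0.523 CPM in control medium, not listed with Wnt2, 21.7 in CAF.CM and 8.49 with the antibody. Both were highest in CAF.CM among the libraries with a value.

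Siglecs are receptors for sialic acid, and 3 of 5 listed members were lower (60%, against 3.65% of all genes). Siglec1, the macrophage Siglec that is also interferon-inducible, was at 17.2 CPM in control medium, 12.01 with Wnt2, 24.3 in CAF.CM and 3.83 with the antibody, a ratio of -2.64 (interval -2.999 to -2.34). Its antibody value was the lowest of the 4 libraries. Cd33, another Siglec gene, was at 82.4 CPM in control medium, 107 with Wnt2, 118 in CAF.CM and 56.5 with the antibody, a ratio of -1.06 (interval -1.15 to -0.96), and Siglece was at 1.64 CPM in control medium, 0.866 with Wnt2, 12.8 in CAF.CM and 5.86 with the antibody.

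SIRP and other paired receptors, which come in activating and inhibitory forms, had 6 of 22 members lower (27.3%, against 3.65% of all genes). All 22 were below 0, with a median of -0.73. Sirpb1c, an activating form, was at 193 CPM in control medium, 325 with Wnt2, 67.9 in CAF.CM and 16.5 with the antibody, a ratio of -2.03 (interval -2.203 to -1.88). Sirpb1a and Sirpb1b were at -1.53 and -1.41. The copies share 48.04% (Sirpb1a), 69.2% (Sirpb1b) and 72.02% (Sirpb1c) of their words with other genes, so they are best read together.

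Complement genes were lower in 8 of 17 listed members (47.1%, against 3.65% of all genes) and below 0 in all 17. The C1 complex starts the classical pathway, and each of its 5 genes was lower. C1s1, the serine protease, was at 17.8 CPM in control medium, 11.99 with Wnt2, 79.3 in CAF.CM and 24.3 with the antibody, a ratio of -1.705 (interval -1.85 to -1.57), and C1ra was at 63.6 CPM in control medium, 59.5 with Wnt2, 98.2 in CAF.CM and 37.4 with the antibody. C1qb was at 217 CPM in control medium, 58.03 with Wnt2, 14.7 in CAF.CM and 5.26 with the antibody, and C1qc and C1qa had ratios of -1.502 and -1.08. The order of the libraries differed within the complex: the protease genes were highest in CAF.CM, while C1qb was highest in control medium. C1qa, C1qb and C1qc are also macrophage markers. C5ar1, a receptor for the C5a fragment, was at -1.098.

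Myeloid C-type lectins recognise sugars on microbes and dying cells. Of 18 listed, 4 (22.2%) were lower, against 3.65% of all genes, and 16 were below 0. Clec12a was at 107 CPM in control medium, 2.92 with Wnt2, 11.1 in CAF.CM and 2.33 with the antibody, a ratio of -2.21 (interval -2.696 to -1.83). Clec5a was at 28.6 CPM in control medium, 50.5 with Wnt2, 15.8 in CAF.CM and 5.69 with the antibody, and Clec7a, which encodes the beta-glucan receptor Dectin-1, was at 816 CPM in control medium, 516 with Wnt2, 179.8 in CAF.CM and 97.5 with the antibody. Control and Wnt2 libraries were above both CAF.CM libraries for Clec5a and Clec7a. For Clec12a only the control was high. Fc receptors had 0 of 7 members called, with Fcgr1 at -0.99 and Fcer1g at 0.103.

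Of 13 listed chemokine receptor genes 2 (15.4%) were lower, against 3.65% of all genes, and their median was -0.28. Ccr2, which brings monocytes out of the marrow, was at 580.4 CPM in control medium, 315 with Wnt2, 18.8 in CAF.CM and 3.96 with the antibody, a ratio of -2.22 (interval -2.58 to -1.92). It was lowest with the antibody. Ccr7, which guides mature dendritic cells to lymph nodes, was at 48.5 CPM in control medium, 37.5 with Wnt2, 49.04 in CAF.CM and 37.3 with the antibody, a ratio of -0.39.

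Other genes of monocytes and macrophages had ratios below 0, not all of them past 2-fold. Of 14 listed scavenger receptor genes 2 (14.3%) were lower, against 3.65% of all genes, and 11 were below 0, with a median of -0.39. The scavenger receptor gene Msr1 was at 368 CPM in control medium, 275 with Wnt2, 103 in CAF.CM and 41.7 with the antibody, and Mrc1, the mannose receptor, was at -0.78, short of 2-fold. Tgfbi, a matrix protein gene of monocytes, was at 153 CPM in control medium, 258 with Wnt2, 41.8 in CAF.CM and 8.53 with the antibody. Tgfbi was highest with Wnt2, and Msr1 and Mrc1 were highest in control medium. All 3 were lowest with the antibody.

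Matrix and protease genes were lower in 6 of 27 listed members (22.2%, against 3.65% of all genes). Among them were Fn1 (fibronectin) at 6538 CPM in control medium, 7003 with Wnt2, 785 in CAF.CM and 359.5 with the antibody, a ratio of -1.13 (interval -1.16 to -1.09), and Vcan (versican) at -1.27. Integrins were lower in 3 of 14 listed members (21.4%, against 3.65% of all genes), with Itga1 at -1.13 and Itga6 at -1.01.

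Most antigen presentation genes lay within 2-fold, as did most genes of any kind. Over all genes 3.65% were lower and 1.02% higher, so the low counts below do not set these lists apart. Ciita, which drives transcription of the MHC class II genes, stood at 30.3 CPM in control medium, 4.21 with Wnt2, 6.11 in CAF.CM and 1.85 with the antibody, a ratio of -1.68 (interval -2.24 to -1.23). It was the only one of 14 listed MHC class II genes to be called, and the list's median was -0.06, with H2-DMb2 at -0.99 just short of 2-fold. H2-Aa, a class II alpha chain gene, was at 599 CPM in control medium, 60.5 with Wnt2, 365 in CAF.CM and 316 with the antibody, a ratio of -0.21. The level of Ciita rested on 159 reads in CAF.CM and 43 with the antibody.

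MHC class I and peptide loading genes had a median of 0.14 with 1 of 22 lower, H2-T24 at -1.03. Nlrc5, the class I transactivator, was at 57.996 CPM in control medium, 62.5 with Wnt2, 104 in CAF.CM and 59.1 with the antibody, a ratio of -0.81, while Calr, a loading chaperone, was at 0.56. None of 38 proteasome genes and none of 22 maturation and costimulation genes was called. Cd86, a costimulatory ligand, was at 35.2 CPM in control medium, 81.2 with Wnt2, 32.9 in CAF.CM and 23.5 with the antibody, and Cd83 and Icam1 had ratios of -0.52 and -0.65.

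The higher genes held fewer families. Cxcl1 and Cxcl2, which attract neutrophils through CXCR2, were the 2 higher genes of 8 listed CXC chemokines. Cxcl1 was at 2.75 CPM in control medium, 9.12 with Wnt2, 15.4 in CAF.CM and 61.2 with the antibody, a ratio of 1.98 (interval 1.83 to 2.15). Cxcl2 was at 20.7 CPM in control medium, 71.4 with Wnt2, 26.2 in CAF.CM and 59.4 with the antibody, a ratio of 1.18 (interval 1.05 to 1.32). The antibody library was the highest of the 4 for Cxcl1, while for Cxcl2 the Wnt2 library was above it. Cxcl3, from the same cluster, was at 39.8 CPM in control medium, 253 with Wnt2, 71.4 in CAF.CM and 86.1 with the antibody, a ratio of 0.27.

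The promoters of Cxcl1 and Cxcl2, neighbours on chromosome 5, are shown together. They lie at chr5:90891045-90891244 and chr5:90903699-90903898, both on the plus strand (GRCm38.p6, RefSeq), and capitals mark the NF-kappaB motif, matched on both strands.
Cxcl1: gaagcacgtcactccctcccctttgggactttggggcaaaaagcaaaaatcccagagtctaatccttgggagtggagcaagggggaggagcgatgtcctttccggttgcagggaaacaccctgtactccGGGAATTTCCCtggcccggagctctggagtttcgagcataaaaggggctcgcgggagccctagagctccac
Cxcl2: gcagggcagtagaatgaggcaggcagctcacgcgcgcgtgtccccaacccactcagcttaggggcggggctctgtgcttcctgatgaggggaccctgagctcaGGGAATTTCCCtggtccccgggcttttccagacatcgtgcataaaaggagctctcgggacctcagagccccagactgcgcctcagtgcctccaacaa

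Both hold the same run of motif letters, which first matches 71 bases before the transcription start in Cxcl1 and 97 before it in Cxcl2. The motif occurs in 9.55% of the genes of the table. The 23 listed NF-kappaB subunit and inhibitor genes had none called, with Relb at -0.63 and Nfkbib at 0.66.

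Ptgs2, the inducible cyclooxygenase, was at 0.897 CPM in control medium, 9.39 with Wnt2, 35.7 in CAF.CM and 98.3 with the antibody, a ratio of 1.46 (interval 1.35 to 1.57). It was the 1 higher gene of 17 in the prostaglandin pathway. The constitutive enzyme gene Ptgs1 was at 207 CPM in control medium, 383 with Wnt2, 77.96 in CAF.CM and 49.6 with the antibody (ratio -0.65), and Ptger4, a prostaglandin E2 receptor, was at -0.67. The inducible and the constitutive synthase thus had ratios of opposite sign.

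Of 22 listed inflammatory cytokine genes 1 was higher and 1 lower (at -1.03), against 1.02% and 3.65% of all genes. Their median was 0.17, with 8 below 0 and 14 above. Gdf15, a stress-induced cytokine, was at 7 CPM in control medium, 5.53 with Wnt2, 6.76 in CAF.CM and 22.8 with the antibody, a ratio of 1.74 (interval 1.502 to 2.01). Inhba, which encodes activin A, was at 22.6 CPM in control medium, 59.5 with Wnt2, 49.96 in CAF.CM and 91.3 with the antibody (ratio 0.87), and Lif, Osm and Il1a had ratios of 0.73, 0.58 and 0.55. Nos2, the inducible nitric oxide synthase, went from 751 CPM in CAF.CM to 1362 with the antibody with a ratio of 0.86 (interval 0.83 to 0.89), where the other libraries had 16.7 and 30.3. The CC chemokines did not share a direction: Ccl6 was at 2698 CPM in control medium, 2641 with Wnt2, 339.8 in CAF.CM and 130.1 with the antibody, a ratio of -1.39 (interval -1.45 to -1.33), and Ccl3 was at 0.66. Their median of -0.103 changed sign with the scaling.

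The p53, NRF2 and chaperone lists had medians above 0. Of 21 p53 targets 2 were higher and 4 below 0, with a median of 0.19, of 20 NRF2 targets 1 was higher and 4 below 0, with a median of 0.22, and of 20 chaperone genes 1 was higher and 6 below 0, with a median of 0.22. Over all genes the median was -0.04. Zmat3, a p53-induced RNA-binding protein gene, was at 14.5 CPM in control medium, 15.96 with Wnt2, 16.4 in CAF.CM and 34.7 with the antibody, a ratio of 1.08 (interval 0.91 to 1.26). Mt2, a metal-binding metallothionein, was at 15.6 CPM in control medium, 24.1 with Wnt2, 44.5 in CAF.CM and 96.5 with the antibody, and its neighbour Mt1 at 0.78. The chaperone gene Hsph1 was at 56.6 CPM in control medium, 63.4 with Wnt2, 125 in CAF.CM and 232 with the antibody, a ratio of 0.89. Cdkn1a, the p53-induced cell cycle inhibitor, was at 0.54. The 31 listed integrated stress response and tRNA synthetase genes lay on both sides of 0, 15 below and 16 above, with a median of 0.04 and none called. Atf4 and Ddit3 were at 0.67 and 0.63, while Gpt2 and Shmt2 were at -0.79 and -0.76.

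Other genes among the highest ratios were Cd24a, a glycoprotein of immature blood cells, at 22.9 CPM in control medium, 41.7 with Wnt2, 28.3 in CAF.CM and 74.9 with the antibody with a ratio of 1.399 (interval 1.28 to 1.53), and Hamp, which encodes the iron hormone hepcidin. Hamp was at 3.96 CPM in CAF.CM and 11.2 with the antibody, a ratio of 1.49 (interval 1.17 to 1.85). Hilpda, a hypoxia-inducible lipid droplet protein gene, was at 39.2 CPM in control medium, 178 with Wnt2, 274 in CAF.CM and 550.01 with the antibody (ratio 1.01). Of 34 glycolysis and hypoxia genes 0 were called, and with 1.02% of all genes higher this count does not set the list apart. Its median was 0.03, with 13 below 0 and 21 above. Kif11 and Ccne2 were the 2 higher genes of 33 in replication and mitosis, at 1.101 and 1.13, and Mki67 was at -0.73. Histone cluster genes had 5 higher and 1 lower of 53, where 1.02% and 3.65% of all genes were, with a median of 0.29. Many histone copies are near-identical (73.5% of the words of Hist1h2bf are shared), and their reads are uncertain.

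Immediate-early genes were split. Of 29 AP-1, EGR and DUSP genes 2 (6.90%) were lower and 0 higher, against 3.65% and 1.02% of all genes, with 18 below 0, 11 above and a median of -0.15. Their summed level was 1482 CPM in CAF.CM and 1501 with the antibody. Egr1 was at 24.9 CPM in control medium, 20.6 with Wnt2, 13.8 in CAF.CM and 5.56 with the antibody, a ratio of -1.302 (interval -1.62 to -1.02), and Dusp6, an inhibitor of ERK, was at 70.4 CPM in control medium, 154 with Wnt2, 44.7 in CAF.CM and 19.7 with the antibody. Fos was at -0.85 and Jun at -0.01, the sign of the latter depending on the scaling. Acod1, the itaconate-producing enzyme of activated macrophages, was at 52.5 CPM in control medium, 56.8 with Wnt2, 137 in CAF.CM and 41.8 with the antibody, a ratio of -1.71 (interval -1.82 to -1.61), with the antibody library the lowest.

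Wnt2 was not listed in the antibody table, nor was Axin2, the usual feedback target of beta-catenin. Of 24 listed genes in the list of Wnt receptors and beta-catenin machinery 1 (4.17%) was lower, near the 3.65% of all genes. It was Wnt11, which encodes a Wnt ligand and not a receptor, at -1.06 on 28 and 11 reads. The list had 12 members on each side of 0, and the sign of its median changed with the scaling. Ctnnb1, which encodes beta-catenin, was at 347 CPM in control medium, 359.6 with Wnt2, 267 in CAF.CM and 286 with the antibody, a ratio of 0.101 (interval 0.05 to 0.15). The receptor genes Fzd1 and Fzd5 were at -0.67 and 0.67, and Wls, needed to secrete Wnt proteins, was at -0.53.

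Of 20 Wnt target genes 12 were not listed, and none of the 8 listed was called. With 3.65% of all genes lower and 1.02% higher, a list of 8 is too short for this count to set it apart. Ccnd1 was at 11.4 CPM in control medium, 3.67 with Wnt2, 8.91 in CAF.CM and 6.59 with the antibody, a ratio of -0.43, and Rnf43, a feedback inhibitor, was at 1.25 CPM in control medium, 2.23 with Wnt2, 1.805 in CAF.CM and 3.66 with the antibody, a ratio of 0.99 (interval 0.49 to 1.57) on 47 and 85 reads. The interval of Rnf43 spans 2-fold, so the depth does not settle its side.

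Housekeeping machinery lay close to 0. Neither the 84 cytosolic ribosomal protein genes (median -0.03) nor the 76 nuclear respiratory chain genes (median 0.05) nor the 38 lysosome genes (median -0.12) had a member called. Sterol and fatty acid synthesis genes had 0 higher and 1 lower of 32, with a median of 0.12, and Sqle, a sterol synthesis enzyme gene, was at 0.89. Lipid genes included Apoe at 4647 CPM in control medium, 4862 with Wnt2, 471 in CAF.CM and 265 with the antibody, a ratio of -0.83, and Abca1 at -0.42.

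Genes encoded by mitochondrial DNA differed from the nuclear genes of the same complexes. Of 14 mitochondrial genes 8 were lower, with a median of -1.41, while none of 76 nuclear respiratory chain genes was called. The spread was wide for messages cut from the same precursor. The gene mt-Nd2 was at 159 CPM in control medium, 251 with Wnt2, 101 in CAF.CM and 24.003 with the antibody, a ratio of -2.07 (interval -2.21 to -1.94). The genes mt-Atp8 and mt-Co2 were at -1.94 (interval of mt-Atp8 -2.12 to -1.78) and -1.81, whereas mt-Co3 was at -0.43 and mt-Atp6 at -0.04. Of the words of mt-Co2 100% recur in other genes, against 13.5% for mt-Nd2 and 7.47% for mt-Atp8. The gene mt-Nd1, with 0% shared, was at -1.76 (interval -1.83 to -1.70). Whether these ratios follow the amount of each message was not tested. The ribosomal RNAs mt-Rnr1 and mt-Rnr2 stood at 0.19 and 0.16.

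Nuclear copies of mitochondrial DNA differed among themselves. Gm10925 at -1.98, Gm28437 at -1.85 and Gm28661 at -1.72 had ratios like those of the lower messages. Every word of these 3 genes recurs in another gene. Gm29216 was at -0.25, with 97.2% of its words shared. Gm28438, also annotated as an unprocessed pseudogene, had 447 reads in CAF.CM and 0 with the antibody, at least 133-fold lower against a floor of 3 reads. How reads were assigned between such copies was not tested. The libraries were depleted of mitochondrial ribosomal RNA, per the labels' protocols, and the mitochondrial genes together held 4.27% of reads in CAF.CM and 4.11% with the antibody.

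**Figure D5:**
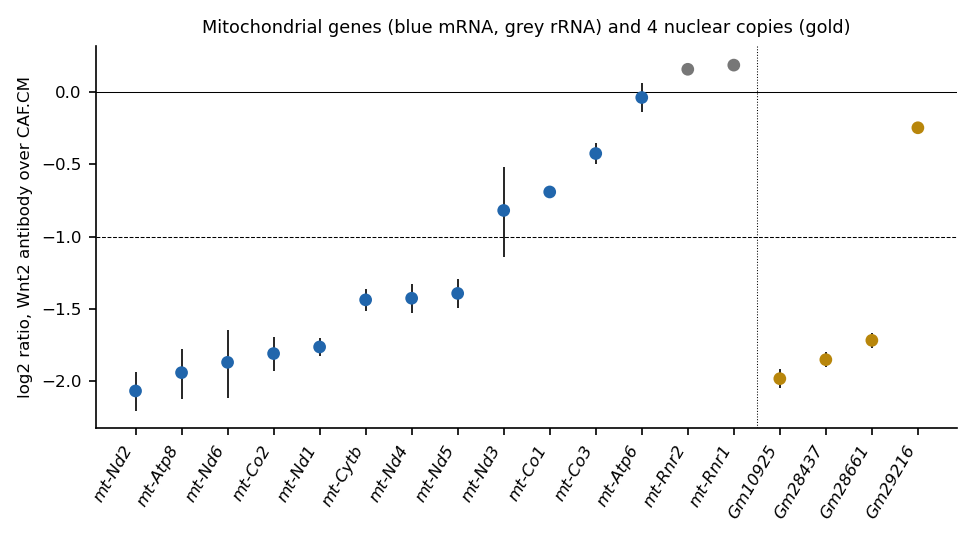
Log2 ratio of the antibody over the CAF.CM library (y axis) of 12 mitochondrial messenger RNAs (blue), 2 mitochondrial ribosomal RNAs (grey) and 4 nuclear copies (gold), with 95% exact binomial counting intervals as bars. The messages run from -2.07 for mt-Nd2 to -0.04 for mt-Atp6, and both ribosomal RNAs lie above 0.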

How the data were processed

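Libraries were stranded and made from total RNA after removal of ribosomal RNA, per the labels' protocols. The submitters' processing notes name STAR 2.4.2a, RSEM 1.2.29, edgeR and the builds GRCm38.p5 and mm10, with no role or order. Each library column holds normalized CPM, per the file headers. The deposited tables also hold the authors' log2 fold changes, log2 mean CPM, p-values and adjusted p-values. The p-values were not used, since 1 column per group gives no spread, and no p-value was computed.

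The CPM of each library were whole multiples of 1 step (100% within 0.1 step), the worth of 1 read, and reads were recovered from it. The plan had named counts. Ratios were computed from these reads in edgeR 4.0.16 (R 4.3.3) on the log2 CPM scale, with prior count 2 and the effective library sizes of the deposited CPM. Intervals used scipy 1.17.1 in Python 3.11.15, tables numpy 2.4.6 and pandas 2.3.3, and plots matplotlib 3.10.9. The ratio step was tested on simulated data. GENCODE M21 gave positions and transcripts and matched 99.8% of genes. A RefSeq table on GRCm38.p6 gave promoters, for 7797 of 9550 protein-coding genes with 200 reads. A shared word is a run of 31 bases that also occurs in another gene's longest transcript.

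Members, 57 gene lists, 12 marker lists and 15 families defined by symbol were chosen with earlier results of these data known. The text names the 30 protein-coding genes with the lowest and the 30 with the highest ratio (200 reads in sum, 5 CPM in a library, no predicted, unnamed or mitochondrial genes). It also names up to 6 genes with the largest ratio in each list (100 reads in sum) and 14 fixed genes. Actb, Actg1, Aim2, Gapdh, Hprt, Tbp, Wnt11, Gm26870, Gm10800, Gm10801, the genes named within runs, and some mitochondrial genes and nuclear copies were picked outside the rule, with values in view. A symbol with several identifiers is represented by the one with most reads. Settings tried in place of these were size factors of DESeq2 1.42.0, total counts, own TMM factors, prior counts 0.5 and 5, at least 100 reads, protein-coding genes alone, a 1.5-fold threshold, the counting interval, and the deposited log2 fold change. Some genes that the rule names are not reported here.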

Additional observations from a re-analysis of the deposited data

How the results depend on the processing

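The 133 higher and 477 lower genes became 47 and 261 with at least 100 reads in 1 library, 575 and 1400 at 1.5-fold, and 23 and 163 if the whole interval had to pass 2-fold. With protein-coding genes only, 79 were higher and 405 lower. Under the other scalings, prior counts and the deposited log2 fold change the numbers ran from 96 to 165 and from 429 to 519. Of 139 called named genes 13 fell under 2-fold in some alternative and 0 changed sign, and 10 others passed 2-fold. Of 56 list medians 2 changed sign, those of the CC chemokines and the Wnt receptors and beta-catenin machinery, as did the single genes Fcgr2b, Jun and Stat3. No scaling moved the ratios by more than 0.04 (DESeq2 size factors). The planned shares of promoters by ratio class were not computed, because only 72.3% of lower genes have a promoter in the table. No paired analysis was possible because each group has 1 library. A read was worth 0.0431 CPM in the antibody library, so weak genes have wide intervals.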

Other observations

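A run of neighbouring genes with higher ratios was found once. It had 8 predicted protein-coding genes, from Gm10722 to Gm17535, at chr9:3000922-3035805, the first listed genes of that chromosome's annotated sequence, with a median ratio of 1.52. The lincRNA Gm26870, also on chromosome 9, was at 0.827 CPM in control medium, 10.3 with Wnt2, 319 in CAF.CM and 845 with the antibody, a ratio of 1.41 (interval 1.37 to 1.44). On chromosome 2, the predicted genes Gm10800 and Gm10801 were at 0.636 CPM in control medium, 6.495 with Wnt2, 132 in CAF.CM and 378 with the antibody and at 0.162 CPM in control medium, 2.62 with Wnt2, 61.9 in CAF.CM and 149 with the antibody, with ratios of 1.51 and 1.26. All 3 were below 1 CPM in control medium and highest with the antibody. From 61.2% (Gm10720) to 89.3% (Gm10721) of the words of a gene of the run recur in other genes. Long intergenic RNAs together took 3.66% of reads in CAF.CM and 4.98% with the antibody, and protein-coding genes took 75.8% and 72.4%. The 285 long intergenic RNA genes had a median ratio of 0.01, with 9 higher and 15 lower, so this share does not describe most of them. Malat1, a long noncoding RNA, had a ratio of 0.46 on 1598540 reads over both libraries. Neat1, a nuclear RNA, was at 1587 CPM in control medium, 1793 with Wnt2, 2034 in CAF.CM and 3449 with the antibody, a ratio of 0.76.

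Actb, the beta-actin gene often used as a reference, was at 3789 CPM in control medium, 2757 with Wnt2, 1244 in CAF.CM and 618 with the antibody, a ratio of -1.01 (interval -1.04 to -0.98). Actg1, the gamma-actin gene, was at -0.47, and Gapdh, Hprt and Tbp were at 0.02, 0.04 and 0.17. Pagr1a had the lowest ratio of the named genes, -4.17 (interval -5.05 to -3.64), and shares 97.7% of its words with other genes. Zinc finger genes with the symbol Zfp had 10 (3.03%) lower and 0 higher of 330, against 3.65% and 1.02% of all genes, with 240 below 0 and a median of -0.17.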
